A study of Danio rerio with 12 samples.

Results

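The liver plasma protein genes are 37 genes whose proteins are, in the main, made by hepatocytes and released into the blood. They are given as a list of symbols: fibrinogen chains and other clotting proteins, protease inhibitors, complement components, apolipoproteins, other carrier proteins and a few further genes that mark the liver. Of the 37 symbols, 36 were found among the 32105 genes of the count table and 35 had enough counts to be tested. Vitronectin b (vtnb) had no identifier of that symbol. Haptoglobin (hp) was found but had too few counts for a test.

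The RNA was poly(A)-selected from zebrafish (Danio rerio) kidney marrow, the main blood-forming tissue of the adult fish, dissected together with the kidney that surrounds it. There were 12 libraries, each from 1 animal, in 4 groups of 3. Wild type animals were set beside animals with a frameshift allele of prkdc (D3612fs), animals with a frameshift allele of il2rga (Y91fs), and double mutants that carry both. The prkdc product is the kinase subunit that repairs DNA breaks made while antigen receptor genes are assembled, and il2rga encodes the interleukin receptor gamma chain that lymphocytes need. Age, sex, strain and zygosity are not stated in the labels used here, and no transgene is named in the labels of these libraries. Wild type and prkdc mutant libraries are called il2rga-intact below, and il2rga and double mutant libraries il2rga-mutated. Where 3 values of a group are listed, they are those of replicates 1, 2 and 3 in that order.

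The liver of a vertebrate secretes most of the soluble proteins of blood plasma. Fibrinogen is cut by thrombin to make a clot, serpins block proteases, complement proteins end in a pore through microbial membranes, and apolipoproteins carry fat between organs. Most of these genes are switched on together in hepatocytes by a shared set of transcription factors. Kidney marrow is known for blood formation and, in its tubules, for urine production, and not as a main source of plasma proteins.

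Transcripts of most of these genes were low in the il2rga-intact libraries and far higher in il2rga mutant 1 and 2 and in all double mutants. The summed level of the fibrinogen chain genes (fga, fgb and fgg) was 8.75, 2.07 and 5.6 CPM in the wild type libraries and 5.95, 2.73 and 2.04 CPM in those of prkdc mutants, where CPM is the usual count relative to library size, here after TMM scaling. It was 563, 1468 and 13.2 CPM in il2rga mutants and 5087, 932 and 107 CPM in double mutants. Groups with and without the il2rga mutation did not overlap for this sum, although il2rga mutant 3 lay close to wild type 1. The 8 protease inhibitors and angiotensinogen summed to 22.2, 7.31 and 5.7 CPM in the wild type libraries and 19.8, 4.36 and 3.12 CPM in those of prkdc mutants. Their sum was 791, 1167 and 8.72 CPM in il2rga mutants and 2266, 654 and 224 CPM in double mutants. For this sum il2rga mutant 3 sat within the il2rga-intact libraries, and double mutant 1 was far above every other library.

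**Figure D1:**
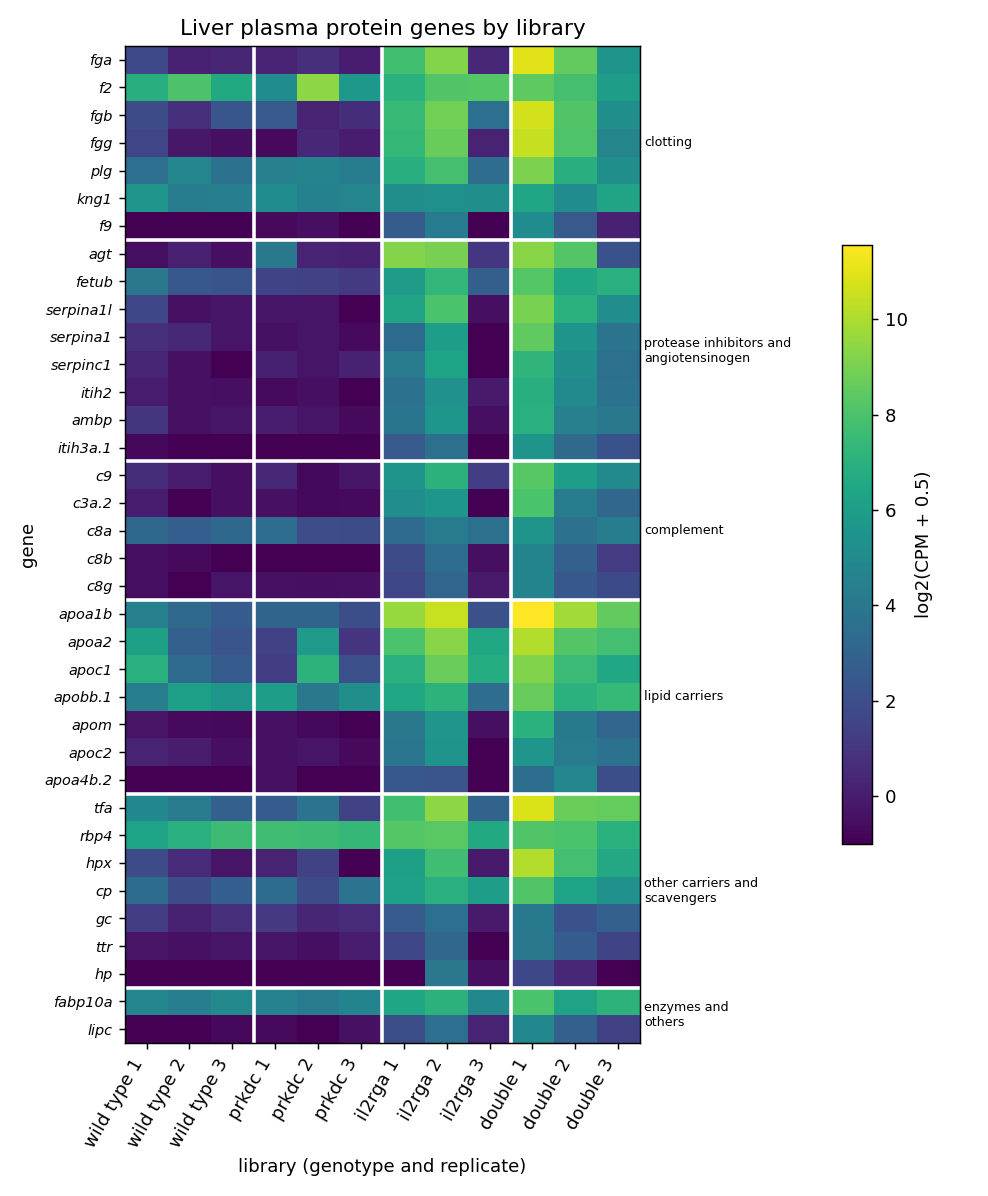
Level of each member found in the table (rows, grouped by role) in each of the 12 libraries (columns, 3 per genotype), as log2(CPM + 0.5). il2rga mutant 1 and 2 and all 3 double mutants stand out, double mutant 1 is the highest library for 32 of 36 members, and il2rga mutant 3 resembles the il2rga-intact libraries for most of them.

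Differences between groups were tested with edgeR's quasi-likelihood test on all 12 libraries, with Benjamini-Hochberg adjustment over the 18370 tested genes at 0.05. Of the 35 tested members, 20 passed the filter on low counts only through the il2rga-mutated libraries. Such genes had to differ, so the counts over members describe and do not support. In prkdc mutants against wild type, 0 of 35 members rose and 0 fell, and the background over all genes was 0% in each direction. At an unadjusted p under 0.05 the number of members was also 0, against 1052 of 18370 genes. DESeq2 and limma voom called 0 members, against 139 and 26 of all genes. In il2rga mutants against wild type, 5 of 35 rose (itih2, c9, apoc2, cp and lipc), against 2.22% of all genes, and 0 fell, against 3.59%. There 29 members had an unadjusted p under 0.05, against 4368 of 18370 genes. DESeq2 called 26 members higher and limma voom 6, against 1084 and 1148 of all genes. In double mutants against wild type, 26 of 35 rose, against 6.8% of all genes, and 0 fell, against 7.51%. In double against prkdc mutants 26 of 35 rose, against 7.93%, and 0 fell, against 6.86%. DESeq2 and limma voom also gave 0 falls among the members in each of these comparisons. Of all genes, DESeq2 called 1316 and limma voom 1497 lower in il2rga mutants against wild type. They called 1946 and 1547 lower in double mutants against wild type, and 1834 and 1576 in double against prkdc mutants. The comparisons of il2rga and of double mutants with wild type share the wild type libraries.

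The il2rga-mutated libraries as a whole were compared with the il2rga-intact ones as the mean of the il2rga and double mutant groups less the mean of the other 2 groups. In that comparison 31 of 35 members rose, against 14.4% of all genes, and 0 fell, against 13.3%. Those that did not pass were f2, rbp4, apobb.1 and apoc1. The median log2 difference of the 35 was 6.65, where all tested genes had a median of 0.05. The 20 members that passed the filter only through the il2rga-mutated libraries set this median, so nothing is read from it. Of the 15 members that pass the same filter in the 6 il2rga-intact libraries alone, 11 rose. The share that rose among all genes that pass in those 6 libraries was not counted, so nothing is read from this count. Between double and il2rga mutants 0 of 35 members differed, against 0% of all genes in each direction, 0 at an unadjusted p under 0.05, and 0 with DESeq2 and limma voom. Of all genes, 1767 of 18370 had an unadjusted p under 0.05 there, and DESeq2 called 72 and limma voom 0. The interaction, which asks whether the double mutant departs from the sum of the single mutants, gave 0 calls, against 0% of all genes. It gave 1 member at an unadjusted p under 0.05, fetub, against 1123 of 18370 genes. DESeq2 and limma voom gave 0 calls among the members, against 49 and 0 over all genes. The p-values rest on 3 animals a group.

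The overlap of single libraries was counted too. In prkdc mutants, 0 of 35 members had all 3 libraries above all 3 of wild type, against 6.27% of all genes. In il2rga mutants 9 of 35 did, against 14.6%, namely fgb, agt, c9, c8a, c8b, c8g, apoa2, cp and lipc. In double mutants 31 of 35 did, against 16.7%, and 30 of 35 were above all prkdc mutants, against 16%. No member, 0 of 35, had all double mutants above all il2rga mutants, against 5.6% of all genes. Among the 9 named, c8b, c8g and lipc had 1 to 3 counts in il2rga mutant 3, so their order rests on a few reads. The c9 gene had 9 counts there, against 11 in wild type 1, so its order depends on library size.

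These calls moved with single libraries where 3 stood against 3. Without il2rga mutant 3, 24 members rose in il2rga mutants against wild type. The same count was 9 without double mutant 1, 12 without double mutant 3 and 3 without double mutant 2. It was 2 without prkdc mutant 2, 1 without prkdc mutant 1, prkdc mutant 3 or il2rga mutant 1, and 0 without il2rga mutant 2 or any 1 of the wild type libraries. Of all genes, 407 of 18370 rose in this comparison with all libraries, 415 without il2rga mutant 3 and 130 without il2rga mutant 2. Without wild type 1, 2 and 3 the number was 92, 73 and 27. In double mutants against wild type the members that rose numbered 4 without double mutant 1 and 3, 4 and 0 without wild type 1, 2 and 3. Of all genes, 1249 of 18370 rose in this comparison with all libraries and 182 without double mutant 1. Without wild type 1, 2 and 3 the number was 199, 363 and 132. In double against prkdc mutants the members that rose numbered 3 without double mutant 1 and 7, 2 and 0 without prkdc mutant 1, 2 and 3. Of all genes, 1456 of 18370 rose in this comparison with all libraries and 177 without double mutant 1. Without prkdc mutant 1, 2 and 3 the number was 555, 308 and 103. The comparison of 6 libraries with 6 called 29 to 31 members whichever library was left out. Of these, 29 to 31 were among the 31 called with all libraries. Of all genes, 2646 of 18370 rose there with all libraries, and 1532 to 2892 with 1 library left out. The fits with 1 library left out tested 18775 to 19060 genes. In bulk tissue, fewer or more cells of a type and less or more RNA per cell cannot be told apart.

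The chains of fibrinogen are encoded by fga, fgb and fgg, whose protein is the substrate of thrombin. The alpha chain gene fga (ENSDARG00000020741) stood at 2.95, 0.609 and 0.753 CPM in wild type animals, 0.687, 1.2 and 0.48 CPM in prkdc mutants, 219, 608 and 0.851 CPM in il2rga mutants and 2015, 373 and 44 CPM in double mutants. All double mutants were above all wild type libraries, while il2rga mutant 3 lay within the wild type range. The log2 fold change of this gene was 9.10 (SE 2.16, adjusted p = 0.026) in double mutants and 7.54 (SE 2.03, adjusted p = 0.0569) in il2rga mutants against wild type, by edgeR's quasi-likelihood test with Benjamini-Hochberg adjustment. Since fga passed the filter on low counts only through the il2rga-mutated libraries, nothing is read from this test. The beta chain gene fgb (ENSDARG00000008969) ran from 0.655 to 5.15 CPM (median 2.17) in the il2rga-intact libraries, and stood at 179.8, 465 and 11.7 CPM in il2rga mutants and 1677, 286 and 37.3 CPM in double mutants. It was 1 of 7 members for which every il2rga-mutated library was above every il2rga-intact one, against 4.65% of all genes. For c8b, c8g and lipc among the 7, this rests on 1 to 3 counts in il2rga mutant 3. For c9 it rests on 9 counts there, against 11 in wild type 1. The gamma chain gene fgg (ENSDARG00000037281) ran from 0.114 to 2.56 CPM (median 0.423) in the il2rga-intact libraries, and stood at 165, 395 and 0.638 CPM in il2rga mutants and 1395, 272 and 26 CPM in double mutants. The 3 chains took the same order of libraries from double mutant 1 through il2rga mutant 2, double mutant 2 and il2rga mutant 1 to double mutant 3.

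Prothrombin, f2 (ENSDARG00000036041), the precursor of thrombin, went another way. It stood at 115, 266 and 98.9 CPM in wild type animals, 33.8, 691 and 51.3 CPM in prkdc mutants, 128, 281 and 303 CPM in il2rga mutants and 348, 229 and 63.2 CPM in double mutants. The highest library was prkdc mutant 2, and the groups overlapped throughout. Its fitted log2 fold change was 0.42 (SE 1.03, adjusted p = 0.809) in double mutants against wild type, which turned to -0.12 without double mutant 1, and 0.15 (SE 0.73, adjusted p = 0.898) between 6 and 6 libraries. Factor IX, f9 (ENSDARG00000029493), a protease of the clotting cascade, had 0 counts in every wild type library, at most 0.218 CPM in prkdc mutants, and 5.88, 18 and 0 CPM in il2rga mutants and 34.2, 5.1 and 0.611 CPM in double mutants. Against the limit that 3 counts over the wild type group give, it was at least 130-fold higher in double mutants and at least 96.5-fold higher in il2rga mutants. These limits, and all such limits and counting intervals below, cover counting error only and leave out the spread between animals.

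Plasminogen, plg (ENSDARG00000023111), the precursor of the clot-dissolving enzyme plasmin, ran from 11.5 to 27.8 CPM (median 20.5) in the il2rga-intact libraries, and stood at 116, 228 and 10.6 CPM in il2rga mutants and 547, 122 and 37.7 CPM in double mutants. In il2rga mutant 3 it was below every il2rga-intact library. It rose between 6 and 6 libraries, with a log2 difference of 3.12 (SE 0.77, adjusted p = 0.0164), and had a log2 fold change of 3.77 (SE 1.12, adjusted p = 0.0501) in double mutants against wild type. Kininogen, kng1 (ENSDARG00000022372), the precursor of bradykinin, stood at 45.5, 19.1 and 21.2 CPM in wild type animals, 34, 22.4 and 25.7 CPM in prkdc mutants, 36.6, 38.8 and 37 CPM in il2rga mutants and 83.4, 33.3 and 79.7 CPM in double mutants. Its range was narrow, and double mutant 3 was nearly as high as double mutant 1. The log2 difference between 6 and 6 libraries was 0.82 (SE 0.27, adjusted p = 0.0441).

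Of the 8 protease inhibitors and angiotensinogen, 8 rose in double mutants against wild type, against 6.8% of all genes, and 1 rose in il2rga mutants, itih2, against 2.22%. All of them except fetub passed the filter on low counts only through the il2rga-mutated libraries, so nothing is read from these counts. Angiotensinogen, agt (ENSDARG00000016412), the precursor of the vasoactive angiotensin peptides, stood at 0.197, 0.609 and 0.215 CPM in wild type animals, 15.7, 0.655 and 0.6 CPM in prkdc mutants, 589.5, 509 and 1.49 CPM in il2rga mutants and 646, 293 and 3.97 CPM in double mutants. The highest il2rga-intact library, prkdc mutant 1, was above double mutant 3, and il2rga mutant 1 was close to double mutant 1. By the same test its log2 fold change was 9.83 (SE 2.68, adjusted p = 0.0385) in double mutants against wild type and 5.80 (SE 2.13, adjusted p = 0.0903) against prkdc mutants. The alpha-1-antitrypsin gene serpina1l (ENSDARG00000090850), a blocker of elastase in mammals, ran from 0 to 2.65 CPM (median 0.325) in the il2rga-intact libraries, and stood at 79.2, 259 and 0.213 CPM in il2rga mutants and 525, 129 and 35.4 CPM in double mutants. The adjacent paralogue serpina1 (ENSDARG00000090286) ran from 0.12 to 1.18 CPM (median 0.325) in the il2rga-intact libraries, and stood at 10.5, 64.4 and 0 CPM in il2rga mutants and 364, 44.4 and 13.7 CPM in double mutants. Reads of such close copies can be split between them in counting, so their separate values are uncertain.

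Fetuin B, fetub (ENSDARG00000053973), an inhibitor of astacin proteases, stood at 15.4, 4.87 and 4.3 CPM in wild type animals, 2.4, 2.18 and 1.68 CPM in prkdc mutants, 61.3, 158 and 6.38 CPM in il2rga mutants and 298, 87 and 126 CPM in double mutants. All 3 prkdc mutants lay below all 3 wild type libraries, with a log2 fold change of -1.97 (SE 0.99, adjusted p = 0.927), and double mutant 3 exceeded double mutant 2. It was 1 of 35 members with prkdc mutants below wild type in this way. The share of all genes with that order was not counted, so nothing is read from it. In double against prkdc mutants its log2 fold change was 6.34 (SE 1.13, adjusted p = 0.0115). Antithrombin, serpinc1 (ENSDARG00000042684), which inactivates thrombin, ran from 0 to 0.787 CPM (median 0.45) in the il2rga-intact libraries, and stood at 18.1, 76.8 and 0 CPM in il2rga mutants and 146, 37.9 and 12.1 CPM in double mutants. The protein of ambp (ENSDARG00000004296) is cut into alpha-1-microglobulin and bikunin. It ran from 0.12 to 1.38 CPM (median 0.325) in the il2rga-intact libraries, and stood at 14.1, 47.5 and 0.213 CPM in il2rga mutants and 126, 21.7 and 16 CPM in double mutants. In both genes il2rga mutant 3 lay within the il2rga-intact range, and the other il2rga-mutated libraries lay above it.

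The inter-alpha-trypsin inhibitor heavy chains bind bikunin and stabilise the hyaluronan matrix. The heavy chain gene itih2 (ENSDARG00000045516) ran from 0 to 0.492 CPM (median 0.217) in the il2rga-intact libraries, and stood at 12.8, 40.5 and 0.425 CPM in il2rga mutants and 117, 31.4 and 12.2 CPM in double mutants. For this gene the log2 fold change was 5.75 (SE 1.44, adjusted p = 0.0447) in il2rga mutants and 7.31 (SE 1.49, adjusted p = 0.0157) in double mutants against wild type. Since itih2 passed the filter only through the il2rga-mutated libraries, nothing is read from this rise. The heavy chain gene itih3a.1 (ENSDARG00000055036) had a single count in wild type 1 and 0 in the other il2rga-intact libraries, and stood at 5.46, 12.1 and 0 CPM in il2rga mutants and 44.9, 9.8 and 3.97 CPM in double mutants. From counts pooled over the group, the double mutant level was 567 times the wild type level, with a 95% counting interval of 101 to 22424.

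The 5 complement members encode the central component C3 and parts of the membrane attack complex, the pore that ends the cascade. Of these 5, 4 rose in double mutants against wild type, against 6.8% of all genes, 5 in double against prkdc mutants, against 7.93%, and 1, c9, in il2rga mutants against wild type, against 2.22%. All except c8a passed the filter only through the il2rga-mutated libraries, so nothing is read from these counts. The c9 gene (ENSDARG00000016319), whose protein lines the pore, ran from 0.109 to 1.08 CPM (median 0.423) in the il2rga-intact libraries, and stood at 45, 133 and 1.91 CPM in il2rga mutants and 315, 66.2 and 31 CPM in double mutants. Every il2rga-mutated library was above every il2rga-intact one in CPM. In il2rga mutant 3 this rests on 9 counts, against 11 in wild type 1, so the order depends on library size. The log2 fold change of c9 was 7.79 (SE 1.59, adjusted p = 0.0163) in double and 6.60 (SE 1.53, adjusted p = 0.0363) in il2rga mutants. For the same reason of the filter, nothing is read from this rise. The C3 gene c3a.2 (ENSDARG00000087359) ran from 0 to 0.492 CPM (median 0.168) in the il2rga-intact libraries, and stood at 35.7, 48.2 and 0 CPM in il2rga mutants and 257, 19 and 8.25 CPM in double mutants. The double mutant 1 value was more than the sum of the other 11, and il2rga mutant 3 had 0 counts.

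The chains of C8 differed in their baseline. The alpha chain gene c8a (ENSDARG00000039516) stood at 9.05, 6.33 and 8.61 CPM in wild type animals, 10.8, 3.38 and 3.24 CPM in prkdc mutants, 10.1, 17.2 and 11.9 CPM in il2rga mutants and 44.4, 12.9 and 18.8 CPM in double mutants. It was already detected in every il2rga-intact library, and its il2rga mutants exceeded wild type in all 3 libraries by a small margin. The log2 fold change of c8a was 1.66 (SE 0.54, adjusted p = 0.059) in double mutants against wild type and 1.42 (SE 0.38, adjusted p = 0.0198) between 6 and 6 libraries. The beta chain gene c8b (ENSDARG00000039517), adjacent to c8a in the GRCz12tu gene order, ran from 0 to 0.197 CPM (median 0) in the il2rga-intact libraries, and stood at 3.15, 11.1 and 0.213 CPM in il2rga mutants and 25.1, 6.6 and 1.83 CPM in double mutants. From pooled counts its double mutant level was 109 times that of wild type, with a 95% counting interval of 36.9 to 531. The gamma chain gene c8g (ENSDARG00000032098) ran from 0 to 0.323 CPM (median 0.224) in the il2rga-intact libraries, and stood at 2.73, 8.01 and 0.425 CPM in il2rga mutants and 25.1, 4.8 and 3.05 CPM in double mutants. For c8b and c8g, every il2rga-mutated library was above every il2rga-intact one in CPM. In il2rga mutant 3 this rests on 1 count of c8b, against 2 in wild type 1. It rests on 2 counts of c8g there, against 3 in wild type 3, so the order depends on library size.

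**Figure D2:**
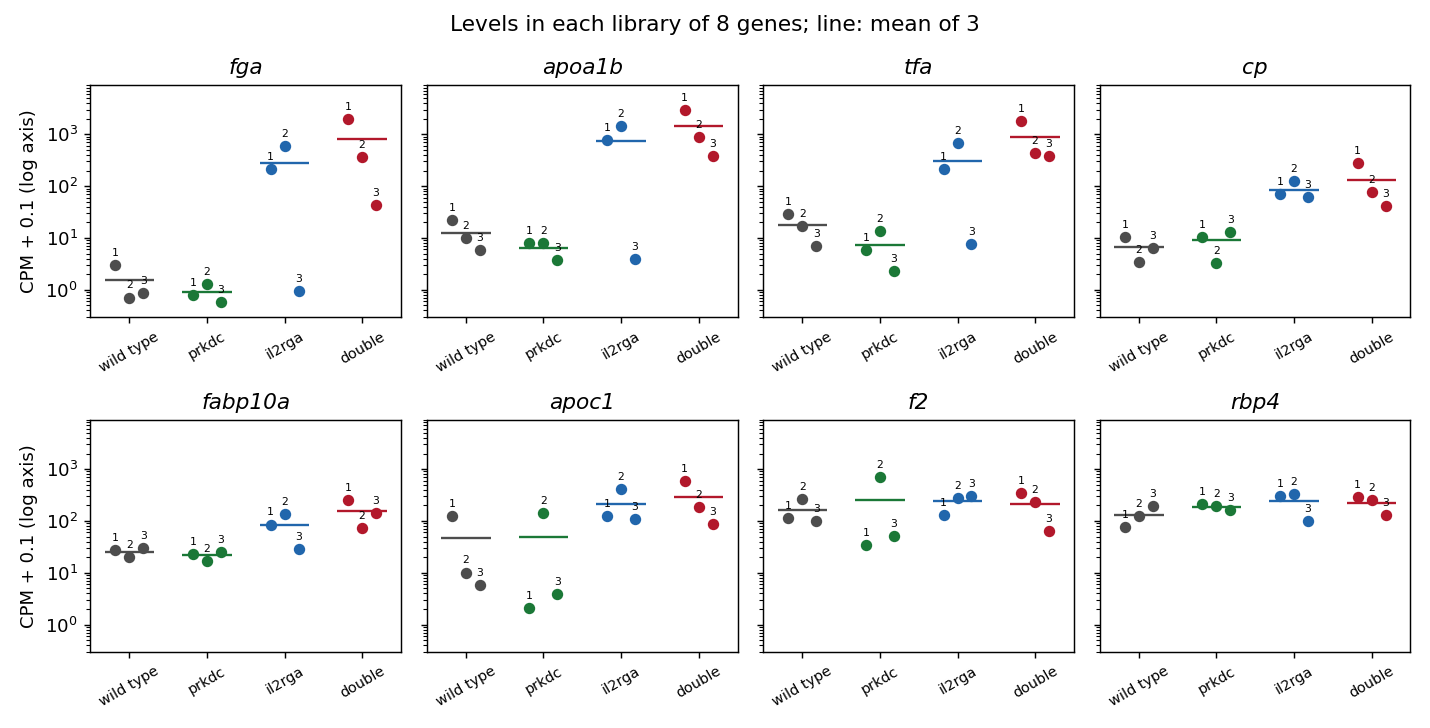
Level of 8 members in each library, in CPM on a log axis, with the 4 genotypes side by side, 1 numbered point per library, 0.1 CPM added and a line at the mean of each group. Fibrinogen alpha (fga), apoa1b, tfa and cp are high in most il2rga-mutated libraries, although il2rga mutant 3 lies within the il2rga-intact range for fga, apoa1b and tfa. For f2, apoc1 and rbp4 the groups overlap more widely.

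Of the 7 lipid carriers, 4 rose in double mutants against wild type, against 6.8% of all genes, and 1, apoc2, in il2rga mutants, against 2.22%. Among those that rose, apoc2, apom and apoa4b.2 passed the filter on low counts only through the il2rga-mutated libraries, so nothing is read from these counts. Apolipoprotein A-I, apoa1b (ENSDARG00000101324), the main protein of high-density lipoprotein, stood at 21.7, 9.74 and 5.7 CPM in wild type animals, 7.78, 7.85 and 3.6 CPM in prkdc mutants, 779.9, 1444 and 3.83 CPM in il2rga mutants and 3011, 891 and 377 CPM in double mutants. The 3 double mutants were above all il2rga-intact libraries, and il2rga mutant 3 lay within their range. Its fitted log2 fold change was 6.84 (SE 1.67, adjusted p = 0.0284) in double mutants and 5.90 (SE 1.60, adjusted p = 0.0584) in il2rga mutants against wild type. Apolipoprotein A-II, apoa2 (ENSDARG00000015866), also of high-density lipoprotein, stood at 68.8, 6.82 and 4.41 CPM in wild type animals, 2.17, 53.3 and 1.44 CPM in prkdc mutants, 253, 631 and 89.1 CPM in il2rga mutants and 1123, 294 and 220.4 CPM in double mutants. Every il2rga-mutated library exceeded every il2rga-intact one, though wild type 1 and prkdc mutant 2 stood well above their own groups. The same 2 libraries stood above their groups for apoc1 (ENSDARG00000092170), an apolipoprotein that inhibits lipid transfer in mammals, at 125, 9.99 and 5.7 CPM in wild type animals, 1.95, 141 and 3.72 CPM in prkdc mutants, 123.1, 417 and 109.8 CPM in il2rga mutants and 579, 189 and 88.1 CPM in double mutants. For apoc1 these libraries reached the il2rga-mutated range, and the log2 difference between 6 and 6 libraries was 2.38 (SE 1.14, adjusted p = 0.144). The genes apoc1, apoc2, apoa2 and apoa4b.2 lie within a few genes of each other in the GRCz12tu gene order.

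The protein of apoc2 (ENSDARG00000092155) activates lipoprotein lipase. It ran from 0.12 to 0.688 CPM (median 0.278) in the il2rga-intact libraries, and stood at 14.7, 44.7 and 0 CPM in il2rga mutants and 47.1, 16.8 and 12.8 CPM in double mutants. It rose in double mutants, with a log2 fold change of 5.73 (SE 1.39, adjusted p = 0.0271), and in il2rga mutants, with a log2 fold change of 5.38 (SE 1.38, adjusted p = 0.0479), although il2rga mutant 3 had 0 counts. Since apoc2 passed the filter only through the il2rga-mutated libraries, nothing is read from this rise. Apolipoprotein M, apom (ENSDARG00000076838), the carrier of sphingosine phosphate, ran from 0 to 0.295 CPM (median 0.115) in the il2rga-intact libraries, and stood at 16, 46.2 and 0.213 CPM in il2rga mutants and 130.02, 16.6 and 8.1 CPM in double mutants. Apolipoprotein A-IV, apoa4b.2 (ENSDARG00000020866), tied to dietary fat absorption, had 0 counts in every il2rga-intact library except prkdc mutant 1, at 0.229 CPM, and stood at 4.83, 4.49 and 0 CPM in il2rga mutants and 11, 27.4 and 3.51 CPM in double mutants. It was the only member highest in double mutant 2. Against the limit that 3 counts over the wild type group give, it was at least 143-fold higher in double mutants and at least 31.9-fold higher in il2rga mutants. Apolipoprotein B, apobb.1 (ENSDARG00000022767), the scaffold of very low density lipoprotein, stood at 19.96, 68.6 and 49.2 CPM in wild type animals, 65, 15.8 and 36.9 CPM in prkdc mutants, 90.6, 139 and 10.6 CPM in il2rga mutants and 403, 128 and 167 CPM in double mutants. The double mutants were above all il2rga-intact libraries and il2rga mutant 3 was below them all. Its log2 difference between 6 and 6 libraries was 1.69 (SE 0.60, adjusted p = 0.0593), so it missed the threshold, and the paralogue apobb.2 may share reads with it.

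Of 6 tested carriers of metals, heme, hormones and vitamins, 4 rose in double mutants against wild type, against 6.8% of all genes, and 1, cp, in il2rga mutants, against 2.22%. Among those that rose in double mutants, hpx and ttr passed the filter on low counts only through the il2rga-mutated libraries, so nothing is read from that count. Transferrin, tfa (ENSDARG00000016771), which carries iron to the red cell precursors of the marrow, stood at 28.9, 16.7 and 6.78 CPM in wild type animals, 5.84, 13.3 and 2.16 CPM in prkdc mutants, 217, 688 and 7.45 CPM in il2rga mutants and 1823, 428 and 390.0 CPM in double mutants. Double mutant 3 was nearly level with double mutant 2, unlike for fibrinogen. By the same test its log2 fold change was 5.65 (SE 1.45, adjusted p = 0.0324) in double mutants against wild type. Hemopexin, hpx (ENSDARG00000012609), which binds free heme, ran from 0 to 3.15 CPM (median 0.831) in the il2rga-intact libraries, and stood at 69.1, 208 and 0.425 CPM in il2rga mutants and 1096, 221 and 96.5 CPM in double mutants. Haptoglobin, hp (ENSDARG00000051890), which binds free haemoglobin, had 0 counts in 8 libraries, 144 and 1 counts in il2rga mutant 2 and 3, and 25 and 8 counts in double mutant 1 and 2. It was not tested. Against the limit that 3 counts over the wild type group give, it was at least 71.1-fold higher in il2rga mutants and at least 12-fold higher in double mutants, and il2rga mutant 2 alone carried most of the counts.

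Ceruloplasmin, cp (ENSDARG00000010312), a copper-binding ferroxidase, stood at 10.2, 3.29 and 6.24 CPM in wild type animals, 10.4, 3.16 and 13.1 CPM in prkdc mutants, 71.2, 124 and 62.8 CPM in il2rga mutants and 280.3, 78.5 and 40.9 CPM in double mutants. Every il2rga-mutated library, il2rga mutant 3 included, was above every il2rga-intact one. The log2 fold change of cp was 3.70 (SE 0.79, adjusted p = 0.0262) in il2rga mutants and 4.33 (SE 0.81, adjusted p = 0.0115) in double mutants against wild type. Retinol binding protein, rbp4 (ENSDARG00000101199), the plasma carrier of vitamin A, stood at 76.6, 124 and 193 CPM in wild type animals, 209, 192 and 163 CPM in prkdc mutants, 305, 325 and 97.6 CPM in il2rga mutants and 286, 256 and 131 CPM in double mutants. No library was under 76.6 CPM, the groups overlapped, its highest library was il2rga mutant 2, and its log2 difference between 6 and 6 libraries was 0.57 (SE 0.32, adjusted p = 0.208). Transthyretin, ttr (ENSDARG00000037191), the thyroid hormone carrier that binds rbp4 in mammals, ran from 0.218 to 0.48 CPM (median 0.309) in the il2rga-intact libraries, and stood at 2.73, 8.33 and 0 CPM in il2rga mutants and 16, 5.9 and 2.44 CPM in double mutants. The vitamin D carrier gc (ENSDARG00000089310) ran from 0.609 to 1.97 CPM (median 1.07) in the il2rga-intact libraries, and stood at 5.67, 11.4 and 0.425 CPM in il2rga mutants and 16.5, 4.0 and 6.72 CPM in double mutants. Both had il2rga mutant 3 below the il2rga-intact libraries, at 0 counts of ttr and 2 of gc, so this order rests on a few reads. Both genes rose between 6 and 6 libraries, with log2 differences of 4.08 (SE 0.83, adjusted p = 0.00592) and 2.62 (SE 0.63, adjusted p = 0.0131). Since ttr passed the filter only through the il2rga-mutated libraries, nothing is read from its rise.

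Fatty acid binding protein 10a, fabp10a (ENSDARG00000038439), which acts inside hepatocytes and is not secreted into plasma in quantity, stood at 27, 20.1 and 29.3 CPM in wild type animals, 22.9, 16.7 and 25.2 CPM in prkdc mutants, 85.1, 135 and 28.3 CPM in il2rga mutants and 255, 73.9 and 140.2 CPM in double mutants. It was detected in every il2rga-intact library, and il2rga mutant 3 lay within their range while the other 5 il2rga-mutated libraries lay above it. For this gene the log2 fold change was 2.62 (SE 0.55, adjusted p = 0.0163) in double mutants against wild type. Hepatic lipase, lipc (ENSDARG00000053476), an enzyme that trims lipoproteins, ran from 0 to 0.24 CPM (median 0.0538) in the il2rga-intact libraries, and stood at 3.57, 11.5 and 0.638 CPM in il2rga mutants and 28.3, 6.6 and 2.29 CPM in double mutants. Every il2rga-mutated library was above every il2rga-intact one, although il2rga mutant 3, with 3 counts against 2 in prkdc mutant 3, was far below the rest. It rose in il2rga mutants, with a log2 fold change of 6.72 (SE 1.56, adjusted p = 0.0337), and in double mutants, with a log2 fold change of 7.92 (SE 1.56, adjusted p = 0.0134). Since lipc passed the filter on low counts only through the il2rga-mutated libraries, nothing is read from this rise. From pooled counts the double mutant level of lipc was 360 times the wild type level, with a 95% counting interval of 64.2 to 14274.

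The members differed in their baseline. In the il2rga-intact libraries, 7 of the 36 members had a median of at least 10 CPM, 8 had 1 to 10 CPM and 21 were under 1 CPM. Between 6 and 6 libraries, the 20 tested members under 1 CPM had log2 differences of 4.08 to 8.77, with a median of 7.44. These 20 are the members that passed the filter only through the il2rga-mutated libraries, so the filter itself sets their range high and nothing is read from the order of the classes. The 8 members of 1 to 10 CPM ran from 1.42 to 7.18, with a median of 4.01. The 7 members of at least 10 CPM ran from 0.15 to 5.53, with a median of 1.69. The il2rga-intact libraries enter both the baseline and the fold change, so no correlation or test is given.

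**Figure D3:**
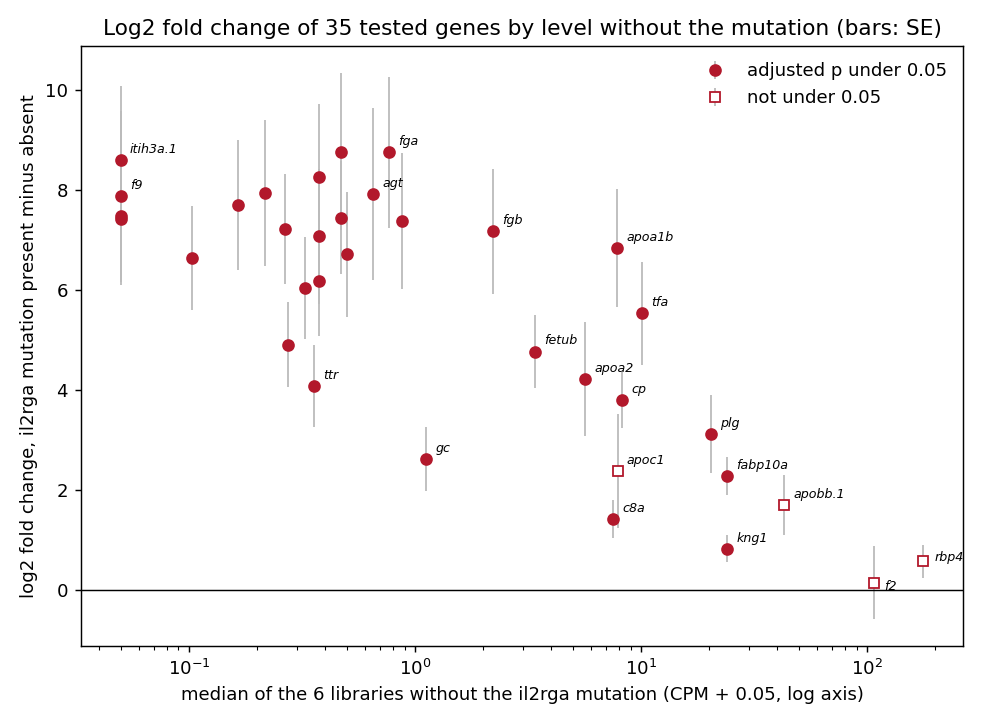
Log2 difference of each tested member between the il2rga-mutated and the il2rga-intact libraries (vertical axis) against its median level in the 6 il2rga-intact libraries in CPM (horizontal log axis, 0.05 CPM added), with bars of 1 SE; open squares did not pass the test. Members under 1 CPM, which entered the test only through the il2rga-mutated libraries, lie between 4.08 and 8.77, and those of at least 10 CPM between 0.15 and 5.53.

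The members moved together from library to library. Over 595 pairs of the 35 tested members, the median Pearson correlation of log2 CPM was 0.915 over all 12 libraries and 0.909 over the 6 il2rga-mutated libraries, but 0.243 over the 6 il2rga-intact ones. After group means were removed it was 0.814. The libraries fall into separate sets, so the first of these values mainly reflects high against low libraries, and all points share library depth. The il2rga-mutated libraries hold a like split. The mean log2 CPM of the tested members was 1.27 in il2rga mutant 3 and 4.53 to 7.65 in the others. The values of 0.909 and 0.814 therefore also reflect high against low libraries. In the il2rga-intact libraries, 20 of the 35 tested members had a median under 1 CPM. The value of 0.243 is therefore limited by counting error, and no loss of co-variation is read from it. The member least like the rest was f2, at 0.24 with the mean of the others, followed by rbp4, kng1 and apoc1.

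il2rga mutant 1 and 2 and the double mutants did not hold the members in 1 fixed proportion. Relative to double mutant 1, the median member stood at 43.2% in il2rga mutant 2, 26.1% in double mutant 2, 16.1% in il2rga mutant 1 and 11.3% in double mutant 3. The last of these was uneven. The level in double mutant 3 over that in double mutant 2 was 0.0135 for agt, 0.0954 for fgg and 0.118 for fga, but 0.911 for tfa, 1.45 for fetub, 1.90 for fabp10a and 2.39 for kng1. The median member was at 0.429. Fibrinogen, as the sum of its 3 chains, was 1.69 times apoa1b in double mutant 1, 1.04 in double mutant 2 and 0.284 in double mutant 3. Angiotensinogen was 0.756 times apoa1b in il2rga mutant 1 and 0.0105 times in double mutant 3. These ratios compare counts that were not divided by transcript length, so they are read between libraries and not between genes.

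**Figure D4:**
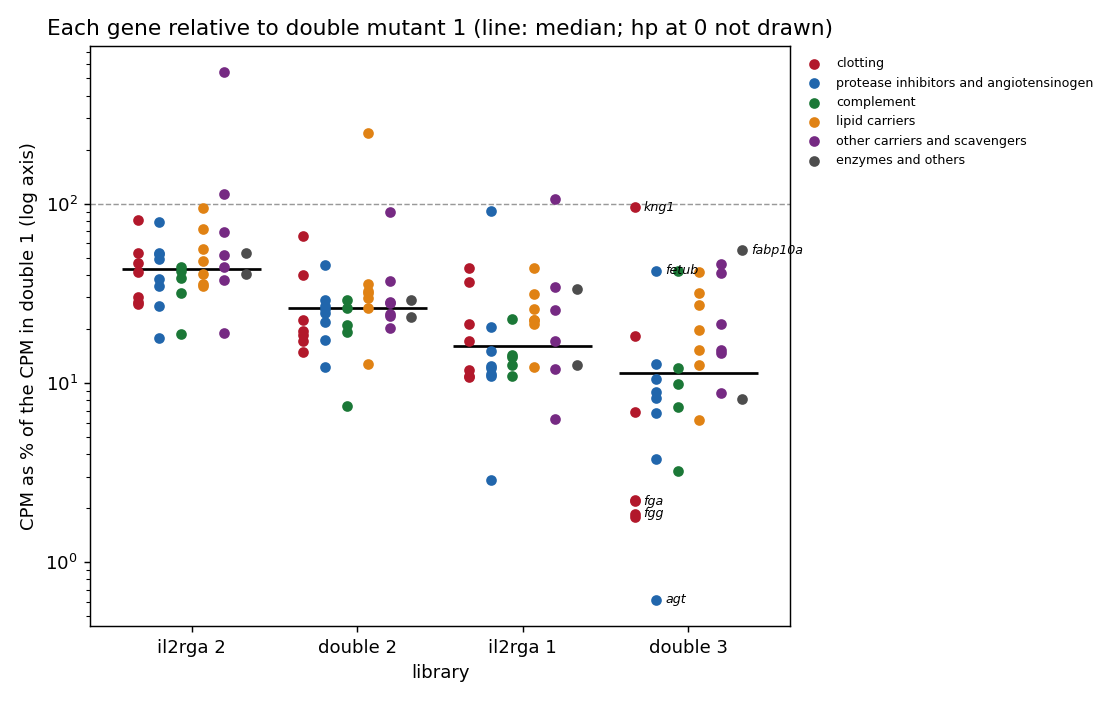
Level of each member in the other high libraries as a percent of its level in double mutant 1 (log axis), coloured by role, with 1 point per member and a line at the median; hp, at 0 in il2rga mutant 1 and double mutant 3, is not drawn there. The points of double mutant 3 spread more widely than those of il2rga mutant 2, with agt and the fibrinogen chains at the low end and kng1 and fabp10a at the high end.

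Among 17728 genes outside the list, the 15 named genes most like the mean of the members over the 12 libraries were vtn, itih3b.1, cfb, asgr1a, c5, apcs, cfhl4, serpinf2a, oxct1b, comtd1, habp2, f7, masp2, selenop2 and cpb2, with 7 identifiers that carry no gene name left out from among them. Their correlations with the mean of the members, after log2 CPM was standardised per gene, ran from 0.996 for vtn to 0.984 for cpb2. The 12 libraries fall into separate sets. In all, 64 genes were above 0.95. The vitronectin gene vtn (ENSDARG00000053831), one of 2 identifiers with that symbol, stood at 5.67, 20.7 and 0 CPM in il2rga mutants and 47.2, 9.4 and 5.35 CPM in double mutants, and at no more than 0.295 CPM in the il2rga-intact libraries. Double mutant 1 was its highest library, and il2rga mutant 3 had 0 counts. Several of the others are liver plasma protein genes too, such as complement factor B (cfb) and component C5 (c5).

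Other liver genes were read from further lists of the same kinds, beside the 6.8% of all genes that rose and the 7.51% that fell in double mutants against wild type. In that comparison 5947 of 18370 genes had an unadjusted p under 0.05. DESeq2 called 2132 of all genes higher and 1946 lower there, and limma voom 1445 and 1547. Of 20 other complement genes tested, 5 rose and 2 fell in double mutants against wild type, and the C3 paralogues went both ways. Beside those given next, c3a.3, cfb and masp2 rose and c3a.4 fell, named after their values were seen. The paralogue c3a.1 had a log2 fold change of 6.73 (SE 1.40, adjusted p = 0.0174) and c5 of 7.34 (SE 1.69, adjusted p = 0.0235), whereas c3a.5 fell, at -2.86 (SE 0.51, adjusted p = 0.00858). Counts of such close copies can be split in counting. Of 12 other clotting genes, 5 rose and 0 fell, where limma voom called 0 and DESeq2 called 6 higher. Besides f5 and cpb2, named after their values were seen, these were habp2, a plasma protease, with a log2 fold change of 7.24 (SE 1.75, adjusted p = 0.0266), serpinf2a, the plasmin inhibitor, with a log2 fold change of 6.49 (SE 1.57, adjusted p = 0.027), and f7 (ENSDARG00000034862), factor VII, with a log2 fold change of 6.95 (SE 1.71, adjusted p = 0.0271). The other identifier with the symbol f7, ENSDARG00000100782, was not called by edgeR's quasi-likelihood test, with a log2 fold change of 2.61 (SE 0.97, adjusted p = 0.0912). Of 10 other apolipoproteins, 5 rose and 0 fell. Besides apobb.2 and apoc4, named after their values were seen, these were apoo (ENSDARG00000104696), whose protein sits in mitochondria, with a log2 fold change of 1.07 (SE 0.18, adjusted p = 0.00654), and apoa4b.1 and apoa4a, with a log2 fold change of 6.29 (SE 1.32, adjusted p = 0.0159) and 3.55 (SE 0.88, adjusted p = 0.0272). Of 8 acute phase genes, 2 rose and 0 fell: the C-reactive protein gene crp3, with a log2 fold change of 6.46 (SE 1.63, adjusted p = 0.0311), and the iron hormone hamp, with a log2 fold change of 5.66 (SE 1.55, adjusted p = 0.0356). In every il2rga-intact library, c3a.3, c5, cfb, masp2, habp2, serpinf2a, f7, cpb2, apobb.2, apoc4, apoa4a, apoa4b.1 and hamp stood at no more than 0.861 CPM. Like most members, they passed the filter on low counts only through the il2rga-mutated libraries. Such genes had to differ, so nothing is read from the counts of these lists.

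Genes that act inside hepatocytes were less uniform. Of 24 tested, 4 rose and 0 fell in double mutants against wild type, with bhmt, an enzyme of betaine metabolism named after its values were seen, as the fourth. The bile acid enzyme cyp8b1 had a log2 fold change of 5.22 (SE 1.04, adjusted p = 0.0131), the liver glycogen synthase gys2 of 5.83 (SE 1.37, adjusted p = 0.0232) and urate oxidase, uox, of 4.69 (SE 1.19, adjusted p = 0.0297). In every il2rga-intact library cyp8b1, gys2 and uox stood at no more than 1.091 CPM. They passed the filter on low counts only through the il2rga-mutated libraries, so nothing is read from their rise. Over the 24 genes the median log2 fold change was 0.42, where that of all tested genes was 0.05. The list summed to 3047 to 5754 CPM in wild type, 2621 to 5159.7 in prkdc mutants, 4247 to 8003 in il2rga mutants and 4861 to 5348 in double mutants, and many of its genes are also expressed in kidney tubules. Of 11 liver transcription factors, 0 rose and 0 fell in double mutants against wild type by edgeR's quasi-likelihood test. At an unadjusted p under 0.05 there were 3, while DESeq2 called 2 higher and limma voom 1. The most abundant of them, cebpa, also a factor of myeloid cells, stood at 344, 209 and 303 CPM in wild type animals, 398, 195 and 209 CPM in prkdc mutants, 453, 348 and 350.4 CPM in il2rga mutants and 315, 510.2 and 321 CPM in double mutants. All 3 il2rga mutants lay above all 3 wild type libraries, while the double mutants overlapped with wild type.

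Markers of other tissues were read beside these values. Of 8 vitellogenins, yolk precursors that the liver of egg-laying females secretes, 2 rose and 0 fell in double mutants against wild type, vtg2 with a log2 fold change of 8.55 (SE 2.34, adjusted p = 0.039) and vtg7 with a log2 fold change of 9.02 (SE 2.49, adjusted p = 0.0398). DESeq2 and limma voom each called 0 of the 8. The list summed to 14.6 to 91.2 CPM in wild type, 33.2 to 187 in prkdc mutants, 12.6 to 46.4 in il2rga mutants and 47 to 2708 in double mutants, and the highest sum was that of double mutant 1. Of 12 ovary and egg coat genes, 1 rose, zp2.1, with a log2 fold change of 5.84 (SE 1.59, adjusted p = 0.0368), and 12 had an unadjusted p under 0.05, while DESeq2 called 7 higher and limma voom 1. The genes zp2.1, vtg2 and vtg7 passed the filter on low counts only through the il2rga-mutated libraries, so nothing is read from their rise. Between 6 and 6 libraries 10 of the 12 ovary and egg coat genes rose, against 14.4% of all genes, and 0 fell, against 13.3%. Most genes of this list were under 1 CPM in most il2rga-intact libraries. The filter therefore helped to fix this count, and nothing is read from it. The 12 genes and those of the list not tested summed to 2.26 to 75.9 CPM in wild type, 3.38 to 27.4 in prkdc mutants, 3.83 to 199 in il2rga mutants and 18.5 to 3259 in double mutants. Double mutant 1, which was highest for 32 of 36 members, was also the highest library for the mean log2 level of this list, while double mutant 3 was the lowest of the il2rga-mutated libraries other than il2rga mutant 3. Their part in the rise of the liver plasma protein genes was not tested.

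Of 12 exocrine pancreas genes, 0 rose and 0 fell in any comparison by edgeR's quasi-likelihood test. In double mutants against wild type 4 had an unadjusted p under 0.05, and DESeq2 called 4 higher and limma voom 3. Between 6 and 6 libraries limma voom called 7 higher and DESeq2 1, against 3320 and 3309 of 18370 genes. They summed to 304 to 506 CPM in wild type, 512 to 562 in prkdc mutants, 486 to 955 in il2rga mutants and 419 to 885 in double mutants, and ptf1a was at 0 in all 12 libraries. The most abundant, cpa1 (ENSDARG00000021339, one of 2 identifiers with that symbol), stood at 382, 254 and 379 CPM in wild type animals, 493, 289 and 498 CPM in prkdc mutants, 401, 417 and 907 CPM in il2rga mutants and 361, 422 and 323 CPM in double mutants. This gene held most of the sum in 11 of the 12 libraries, and its highest library was il2rga mutant 3. Without it the other 11 genes summed, in CPM, to 123.4, 49.9 and 40.4 in wild type libraries, to 69.4, 221 and 24.9 in prkdc mutants, to 85.1, 126 and 47.9 in il2rga mutants and to 147, 454 and 96.5 in double mutants. That sum was highest in double mutant 2. The part of pancreas tissue in the values was not tested. Of 11 kidney proximal tubule genes, 0 rose and 0 fell in double mutants against wild type, with 1 at an unadjusted p under 0.05, while DESeq2 called 1 higher and limma voom 1 in each direction. The list summed to 4361 to 6704 CPM in wild type, 3818 to 5753 in prkdc mutants, 3779.9 to 5275 in il2rga mutants and 4058 to 5916 in double mutants. Its most abundant gene, cubn, stood at 1383, 806 and 866 CPM in wild type animals, 558, 845 and 484 CPM in prkdc mutants, 964, 495 and 245 CPM in il2rga mutants and 545, 1004 and 564 CPM in double mutants. Of 3 intestine genes, 0 rose and 0 fell in double mutants against wild type, with 1 at an unadjusted p under 0.05 and called higher by DESeq2, and 0 by limma voom. The most abundant, ada, stood at 96.6, 121 and 113 CPM in wild type animals, 104, 58.7 and 83 CPM in prkdc mutants, 72.1, 76.8 and 122 CPM in il2rga mutants and 78.9, 46.8 and 139 CPM in double mutants. Of 3 haemoglobin genes 0 rose and 0 fell, with 0 at an unadjusted p under 0.05 and 0 by DESeq2 and limma voom. The most abundant, hbaa1, stood at 1270.5, 1797 and 1304 CPM in wild type animals, 1354, 417 and 685 CPM in prkdc mutants, 1629, 1031 and 2338 CPM in il2rga mutants and 1710.3, 572 and 2043 CPM in double mutants.

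Of 14 macrophage genes, 1 rose in double mutants against wild type, against 6.8% of all genes, and 2 fell, against 7.51%. There DESeq2 called 3 higher and 3 lower, and limma voom 0 higher and 2 lower. The fibrinogen-related mfap4 (ENSDARG00000090557), one of several identifiers with that symbol, rose, with a log2 fold change of 3.14 (SE 0.94, adjusted p = 0.0466). It ran from 0.43 to 0.974 CPM in the il2rga-intact libraries, so it passed the filter only through the il2rga-mutated ones. Other mfap4 copies went both ways. From wild type to double mutants, ENSDARG00000038681 went from 20.2, 0.122 and 6.46 CPM to 0.682, 0.9 and 0.153 CPM. ENSDARG00000088745 went from 6.49, 6.82 and 12.8 CPM to 38.3, 59.7 and 14.5 CPM. The genes cd74a and cd74b, which chaperone MHC class II and are expressed in B cells too, fell, with a log2 fold change of -2.17 (SE 0.42, adjusted p = 0.012) and -1.47 (SE 0.43, adjusted p = 0.0429). Of 7 neutrophil genes, 0 rose and 0 fell in double mutants against wild type, with 1 at an unadjusted p under 0.05 and 0 by DESeq2 and limma voom. In il2rga mutants against wild type 1 rose, the collagenase mmp13a, with a log2 fold change of 2.61 (SE 0.65, adjusted p = 0.0433), against 2.22% of all genes, and 0 fell, against 3.59%. The most abundant neutrophil gene, npsn, stood at 2148, 1352 and 1812 CPM in wild type animals, 3527, 2100.4 and 3529 CPM in prkdc mutants, 2143, 2626 and 4650.4 CPM in il2rga mutants and 2810.3, 2676 and 1872 CPM in double mutants. Its highest library was il2rga mutant 3, the only il2rga-mutated library in which most liver plasma protein genes were as low as in il2rga-intact ones. The part of these cells in the values was not tested.

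**Figure D5:**
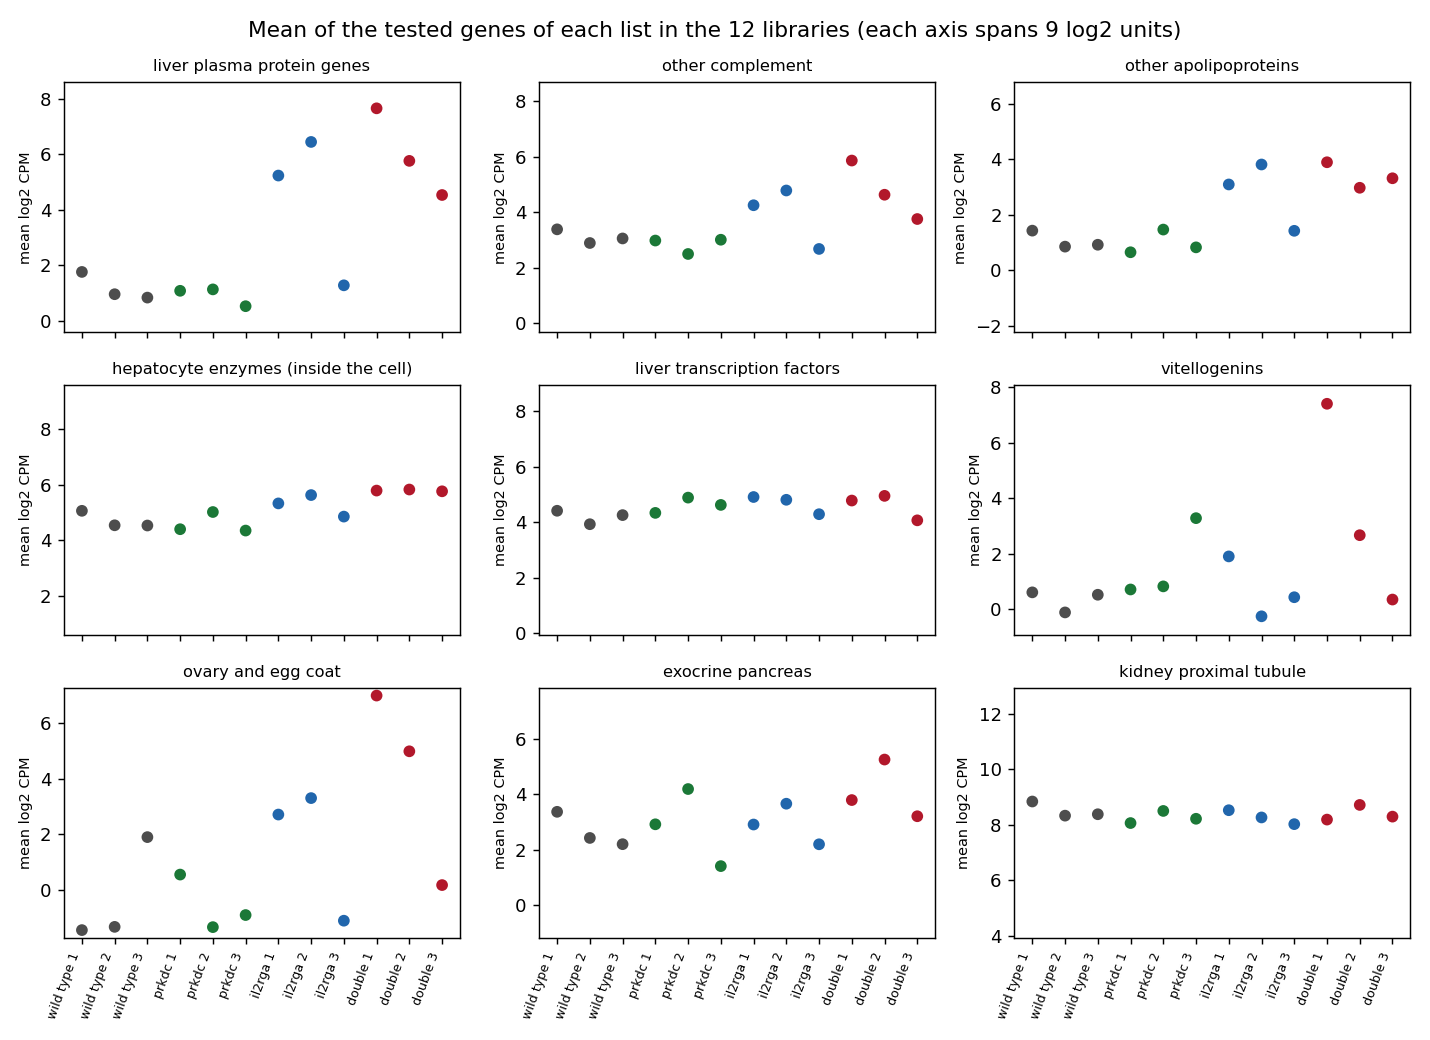
Mean log2 CPM of the tested genes of each list in each library, with 1 panel per list and 1 point per library; each vertical axis spans 9 log2 units. The ovary and vitellogenin lists are highest in double mutant 1, whereas the mean of the proximal tubule list stays between 8.03 and 8.84. Single genes of that list, such as slc13a3 and slc26a1, vary more than its mean.

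Facts of the whole series bear on these results as follows. Total counts ran from 4756244 to 10311377 a library, and il2rga mutant 1, with the smallest total, was among those high for most members. The il2rga transcript stood at 34.1 to 61.4 CPM in il2rga-intact libraries and at 1.71 to 6.17 CPM in il2rga-mutated ones, il2rga mutant 3 included at 6.17. The prkdc transcript stood at 50.1 to 62.8 CPM in wild type, 16.0 to 23.3 in prkdc mutants, 22.1 to 34.2 in il2rga mutants and 17.8 to 19.2 in double mutants. Replicates of a group are separate animals. No batch, date or dissection record is given in the labels, so a batch and a group cannot be told apart.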

How the data were processed

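The values the authors deposited are unnormalized counts for Ensembl genes, 1 column for each of 12 libraries. Per the labels' protocols, 100 ng of RNA per animal was poly(A)-selected and made into strand-marked libraries (15 cycles of PCR), sequenced as 50-base pairs. Per the submitters' processing notes, STAR, Picard and featureCounts were used on GRCz10. Tool versions, the strand setting and the handling of duplicates are not stated there, so reads of overlapping genes may be included.

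Identifiers were matched to symbols in a reference table, giving 26269 of 32105, with RefSeq synonyms for hpx. Genes were kept by filterByExpr and scaled by TMM, and edgeR 4.0.16 in R 4.3.3 fitted 4 group means over 12 libraries by quasi-likelihood, with 2-sided tests. The Benjamini-Hochberg adjustment was over 18370 genes at 0.05. Fold changes are log2, from the fit at edgeR's default prior count, and SE is the fold change over the root of F. The prior count of 2 was used only for log2 CPM levels. The common biological coefficient of variation was 0.418. The analysis was tested on simulated data. Of 18 same-numbered pairs, 6 correlated above 0.1, with all 3 pairs above it in 1 of 6 group pairs, and no label says that numbers pair animals. Members and lists were chosen with earlier results of these data known. Named in full are the 3 most abundant members per role, every member called, and members not tested. Other lists give up to 3 called genes of smallest p in double mutants against wild type, or the most abundant gene. Alternatives were DESeq2 1.42.0, limma 3.58.1 voom, other scalings and filters, the replicate number as a block, fits of the compared groups alone, and leaving out each library. Gene order came from GRCz12tu, so no coordinates are given.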

Additional observations from a re-analysis of the deposited data

How the results depend on the processing

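Of the counts of members that rose, that for il2rga mutants against wild type was 5 as reported, 2 with no filter, 8 with the replicate number as a block, 26 with DESeq2's Wald test and 1 of 22 with only the groups compared. That for double mutants against wild type was 26 as reported, 10 with no filter and 13 with limma voom. That for double against prkdc mutants was 26 as reported, 17 with limma voom and 11 of 34 with only the groups compared. Of all genes, 407 of 18370 rose in il2rga mutants against wild type as reported. It was 246 of 27319 with no filter, 289 with the block, 1084 with DESeq2 and 347 of 17172 with only the groups compared. In double mutants against wild type it was 1249 as reported, 764 with no filter and 1445 with limma voom. In double against prkdc mutants it was 1456 as reported, 1819 with limma voom and 94 of 17097 with only the groups compared. Leaving out 1 library gave 0 to 24, 0 to 29 and 0 to 29 members that rose in these comparisons, and 29 to 31 between 6 and 6 libraries. It gave 0 in the comparisons of prkdc mutants with wild type and of double with il2rga mutants and in the interaction. The cause was not tested. With the block, all other comparisons kept their counts within 1.5 times, and the pairing check gave a median correlation of 0.0657 for same-numbered pairs against -0.017 for others. The sign of f2 turned in double mutants against wild type, to -0.12 without double mutant 1, and reached 0.97 without wild type 2. In double against prkdc mutants it turned to 0.55 with the replicate block, 1.84 with limma voom, 2.33 without prkdc mutant 2 and was -0.85 without prkdc mutant 1 and 0.11 without double mutant 3. Between 6 and 6 libraries it turned to -0.15 without prkdc mutant 1, -0.13 without prkdc mutant 3, was 1.44 without prkdc mutant 2, and was -0.12 without double mutant 1. Over the members in the 4 comparisons with calls, and fetub in prkdc mutants against wild type, 2308 values kept their direction and side of the threshold, 108 gained a call, 346 lost one and 8 changed sign. In comparisons with no call, members with a positive value fell from 32 of 35 to 13 (double against il2rga mutants) and from 29 to 20 (interaction) without double mutant 1, and went from 12 to 21 (prkdc mutants against wild type, 36 members) without wild type 1. Scaling by DESeq2 size factors moved levels by a factor of 0.986 to 1.018. Members at 0 to 3 counts in wild type are limited by depth.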

Other observations

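Some genes of the further lists, named here after their values were seen, differed between 6 and 6 libraries, where 14.4% of all genes rose and 13.3% fell. In that comparison edgeR's quasi-likelihood test with Benjamini-Hochberg adjustment gave a fall for 1 of 24 enzymes of hepatocytes, the tryptophan oxygenase tdo2b, with a log2 difference of -2.32 (SE 0.52, adjusted p = 0.0101), while 9 rose. The gluconeogenic enzyme pck1 was among the 9, with a log2 fold change of 2.37 (SE 0.72, adjusted p = 0.0342). Of 11 liver transcription factors, 2 rose and 2 fell: foxa1 with a log2 fold change of 2.24 (SE 0.73, adjusted p = 0.0423) and cebpb with a log2 fold change of 0.82 (SE 0.22, adjusted p = 0.0209), against hnf4a with a log2 fold change of -0.69 (SE 0.22, adjusted p = 0.0411) and nr1i2 with a log2 fold change of -1.01 (SE 0.29, adjusted p = 0.0257). These 2 of 11 in each direction were near the shares of all genes, so nothing is read from them about the list. For each of these factors the il2rga-mutated and il2rga-intact libraries overlapped. The level of foxa1 was 0.458 CPM in double mutant 3 and 11.2 CPM in prkdc mutant 2. That of hnf4a was 139 CPM in double mutant 3, against 106 to 153 CPM in the il2rga-intact libraries. The factor hnf4a, which drives many plasma protein genes in mammalian liver, is also expressed in kidney tubules. The C3 paralogues c3a.4 and c3a.5 fell, with a log2 fold change of -2.49 (SE 0.51, adjusted p = 0.00676) and -2.94 (SE 0.38, adjusted p = 0.000623), while c3a.3 rose, with a log2 fold change of 6.94 (SE 1.31, adjusted p = 0.00529). The c3a.3 gene passed the filter on low counts only through the il2rga-mutated libraries, so nothing is read from its rise.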
